A study of Homo sapiens with 6 samples.

Results

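The genes described here are 47 subunits of the BAF (SWI/SNF), Polycomb and NuRD chromatin complexes, taken by gene name from the 60662 genes of a count table of messenger RNA in an Ewing sarcoma cell line. They comprise 26 subunits of the BAF family, 9 of Polycomb complexes, 10 of NuRD, and RBBP4 and RBBP7, 2 histone-binding proteins that both PRC2 and NuRD use. All 47 matched a gene of the table and 46 had enough counts to be tested, out of 14425 tested genes in all. The genes were picked by name, from a list drawn up with earlier results of these data known.

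The libraries came from TC-71, an established line of Ewing sarcoma, a bone and soft-tissue tumour driven by a fusion of EWSR1 with an ETS gene, most often FLI1. Stranded mRNA libraries were sequenced from 3 samples of wildtype TC-71 and 3 samples of TC-71 with a knockout of XG, which encodes a cell-surface glycoprotein. Both groups were grown without treatment in the same serum-supplemented medium, and nothing in the labels tells a clonal knockout from a pooled one. The single comparison was XG knockout against wildtype. The labels do not tie the replicates to separate cultures. The p-values below therefore reflect library-to-library variation alone, and that variation may be technical.

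The deposited counts summed to between 22557187 and 31214099 fragments per library. XG had 45.4, 47.1 and 44.4 CPM (fragment counts scaled to library size) in wildtype replicates 1, 2 and 3 and 29.97, 29.98 and 28.9 CPM in knockout replicates 1, 2 and 3, which left 64.8% of the wildtype level (edgeR adjusted p = 1.65e-06). All 10 Ewing sarcoma markers examined reached 1 CPM, and the 10 markers of blood, endothelium and liver did not. Of 4 epithelial markers 2 did, with a summed level of 5.14 to 5.72 CPM in wildtype and 7.01 to 7.53 CPM in the knockout, and of 5 fibroblast markers 4 did, at 41.9 to 45.4 and 40.5 to 48.3 CPM. Their part in the results on the subunits was not tested. Knockout replicate 3 differed less from the wildtype libraries (chi-square per gene 2.15 to 2.38) than from knockout replicates 1 and 2 (4.70 and 4.33). The subunits that passed the test are therefore also given without that library. In bulk RNA, fewer expressing cells and less RNA per cell cannot be told apart.

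BAF complexes slide and evict nucleosomes with the ATPase SMARCA4 or its paralog SMARCA2, and occur in canonical, polybromo-associated (PBAF) and non-canonical forms that share a core. PRC2 methylates histone H3 at lysine 27 and PRC1 ubiquitinates histone H2A, both tied to gene silencing, while NuRD joins a chromatin remodeller to histone deacetylases. In Ewing sarcoma the EWSR1-FLI1 fusion binds GGAA repeats and is known to recruit BAF complexes there, and it is known to engage NuRD as well. Many subunits come from small paralog families whose members take the same place in a complex, so the level of each was set beside that of its paralogs.

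Across the 46 tested subunits differences between the groups were small. By edgeR's quasi-likelihood test, adjusted over all 14425 genes at 0.05, 3 subunits were lower in the knockout and 0 were higher: SMARCA4, MBD3 and GATAD2A. DESeq2 and limma voom called the same 3, where DESeq2 called 203 of 9288 genes in all and limma voom 217 of 14425. In edgeR's test 1.36% of all genes passed, 0.915% as lower and 0.444% as higher. At an unadjusted p under 0.05 there were 11 subunits, 10 lower and 1 higher, against 16.8% of all genes. Of all 14425 genes, 1415 were lower and 1007 higher at that limit. The log2 fold changes of the subunits ran from -0.24 to 0.10, with 18 above and 28 below 0, and their median was -0.0061 against 0.0019 over all tested genes. The 3 knockout libraries lay wholly below the wildtype libraries for 7 subunits and wholly above for 2. Among all genes 20.5% showed such a separation, 9.8% with the knockout below and 10.7% with it above. The median standard error (SE) of the log2 fold change was 0.0390 for the subunits, against 0.0636 over all genes.

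**Figure D1:**
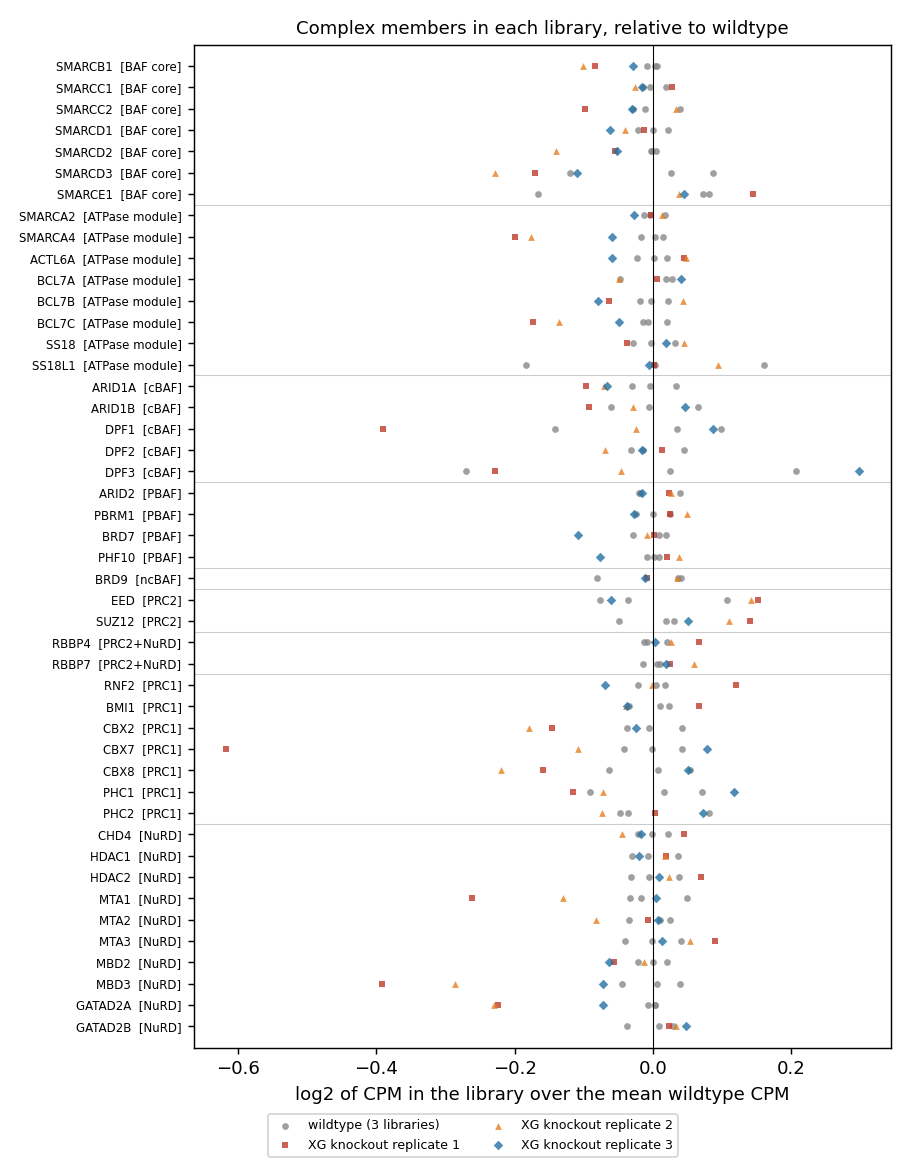
Each of the 46 tested subunits is one line, grouped by complex, and each point is one library's log2 ratio of CPM to the mean wildtype CPM (grey circles, wildtype; squares, triangles and diamonds, knockout replicates 1, 2 and 3). SMARCA4, MBD3 and GATAD2A have all 3 knockout libraries left of all wildtype libraries, with replicate 3 nearest to 0 in each.

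The 3 subunits that passed all lie on chromosome 19, which holds 4 of the 47 subunits. SMARCA4 (ENSG00000127616.18, chromosome 19, 10960825 to 11079426, plus strand, GRCh38) is one of the BAF ATPases. It had 440, 434 and 443 CPM in wildtype and 382, 388 and 421 CPM in the knockout. The groups did not overlap, and knockout replicate 3 was the highest of its group. The means were 439 ± 4.86 and 397 ± 21.0 CPM (SD, n = 3 each), or 90.5% of wildtype, a log2 fold change of -0.14 with an SE of 0.0325 (edgeR adjusted p = 0.0353).

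MBD3 (ENSG00000071655.18, chromosome 19, 1573596 to 1592865, minus strand) is the NuRD subunit of the methyl-CpG-binding domain family that binds methylated DNA weakly, and NuRD complexes carry either MBD3 or MBD2. It had 104, 106 and 100 CPM in wildtype and 78.9, 84.9 and 98.5 CPM in the knockout. Knockout replicate 3 was close to the lowest wildtype library, while the other 2 knockout libraries were well below. The means were 104 ± 3.04 and 87.4 ± 10.0 CPM, or 84.4% of wildtype, a log2 fold change of -0.24 with an SE of 0.0561 (edgeR adjusted p = 0.0383).

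GATAD2A (ENSG00000167491.17, chromosome 19, 19385826 to 19508931, plus strand) is a zinc finger protein that links the MBD subunit of NuRD to the CHD remodeller. It had 231, 229 and 231 CPM in wildtype and 197, 196 and 219 CPM in the knockout. Here too the groups did not overlap and replicate 3 was the knockout library nearest to wildtype. The means were 230 ± 0.908 and 204 ± 12.8 CPM, or 88.7% of wildtype, a log2 fold change of -0.17 with an SE of 0.0365 (edgeR adjusted p = 0.0262). In the authors' deposited table the same 3 subunits passed an adjusted p of 0.05 among 41 with an adjusted value. Of all 7482 genes with an adjusted value there, 199 passed. The deposited log2 fold changes were -0.15 for SMARCA4, -0.24 for MBD3 and -0.17 for GATAD2A.

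These 3 calls needed each of the 5 other libraries. Leaving out knockout replicate 3, the log2 fold changes were -0.19 for SMARCA4, -0.34 for MBD3 and -0.23 for GATAD2A (edgeR adjusted p = 8.97e-07, 7.79e-09 and 7.62e-08). Without any one of the wildtype libraries or knockout replicates 1 and 2, the edgeR adjusted p-values rose to between 0.108 and 0.196 for SMARCA4, between 0.132 and 0.215 for MBD3 and between 0.0831 and 0.158 for GATAD2A. With knockout replicate 3 as the 1 knockout library the log2 fold changes were -0.059, -0.073 and -0.073 (edgeR adjusted p = 0.406, 0.554 and 0.363), and its spread was then taken from the wildtype libraries. In the fit that left it out, 11 subunits passed, where 12.7% of all genes did: the same 3 with ARID1A, SMARCB1, SMARCD2, SMARCD3, SUZ12, CBX2, CBX8 and MTA1. With a minimum of 100 counts in 3 libraries, which changes the number of genes tested, only GATAD2A passed among the subunits, and SMARCA4 and MBD3 had edgeR adjusted p = 0.0522 and 0.0685. The direction was lower in the knockout under every alternative tried for these 3 genes.

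Each of the 3 genes has a paralog on another chromosome that fills the same place. SMARCA2, the other BAF ATPase, had 31.1, 31.8 and 31.3 CPM in wildtype and 31.3, 31.7 and 30.8 CPM in the knockout, a log2 fold change of -0.0055. MBD2, which binds methylated DNA, had 55.5, 54.7 and 56.3 CPM in wildtype and 53.4, 54.96 and 53.1 CPM in the knockout, a log2 fold change of -0.043 (edgeR adjusted p = 0.651). GATAD2B had 70.7, 73.1 and 74.1 CPM in wildtype and 73.8, 74.3 and 75.1 CPM in the knockout, a log2 fold change of 0.036 (edgeR adjusted p = 0.683). None of the 3 paralogs passed the test, and the libraries of each overlapped between groups.

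**Figure D2:**
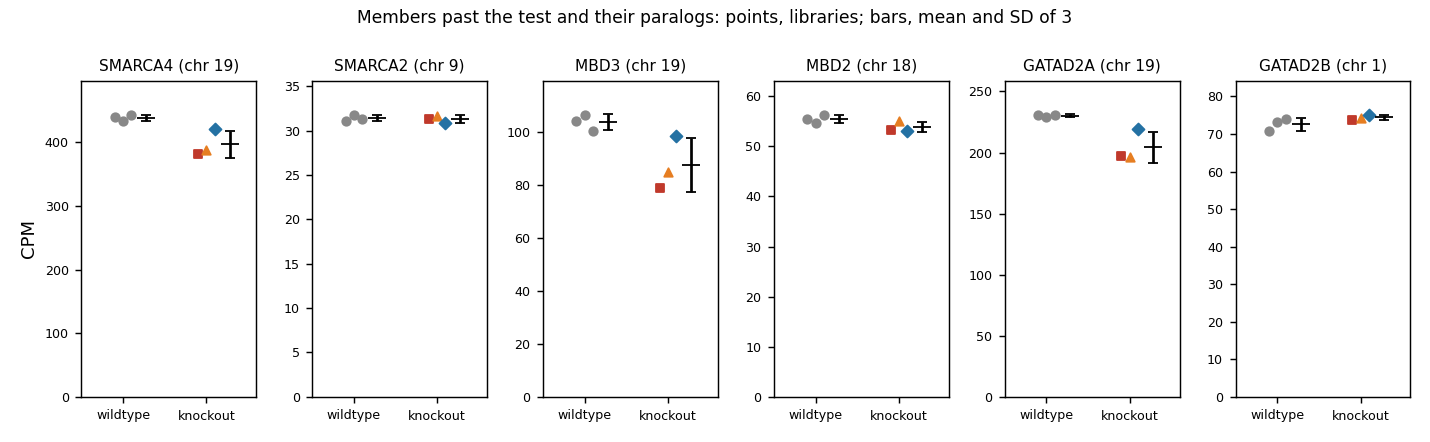
CPM of SMARCA4, MBD3 and GATAD2A, each beside its paralog SMARCA2, MBD2 or GATAD2B, on axes that start at 0 and differ between panels. Points are libraries (circles, wildtype; square, triangle and diamond, knockout replicates 1, 2 and 3) and bars are the mean and SD of 3 libraries; for the 3 chromosome 19 genes every knockout point is below every wildtype point and replicate 3 is the highest knockout library.

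The promoters of the MBD and GATAD2 pairs are shown because 1 gene of each pair passed as lower and the other did not pass. They are also shown because the Ewing sarcoma fusion recognises GGAA. Each window holds the 250 bases before the RefSeq start (GRCh38.p14), written 5′ to 3′ on the gene's strand, with every GGAA or its reverse complement TTCC in capitals. The MBD3 window is chr19:1592866-1593115 (minus strand), that of MBD2 is chr18:54224670-54224919 (minus strand), that of GATAD2A is chr19:19385593-19385842 (plus strand) and that of GATAD2B is chr1:153922973-153923222 (minus strand). In the annotation of the count table the windows of MBD3 and MBD2 lie just upstream of the gene, that of GATAD2A overlaps its first exon by 17 bases, and that of GATAD2B lies inside the gene but in no exon.
MBD3: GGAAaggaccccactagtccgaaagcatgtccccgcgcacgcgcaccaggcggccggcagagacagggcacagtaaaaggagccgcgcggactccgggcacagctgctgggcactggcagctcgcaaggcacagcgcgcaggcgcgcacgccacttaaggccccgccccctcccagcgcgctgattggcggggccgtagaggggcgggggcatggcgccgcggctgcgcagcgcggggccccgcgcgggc
MBD2: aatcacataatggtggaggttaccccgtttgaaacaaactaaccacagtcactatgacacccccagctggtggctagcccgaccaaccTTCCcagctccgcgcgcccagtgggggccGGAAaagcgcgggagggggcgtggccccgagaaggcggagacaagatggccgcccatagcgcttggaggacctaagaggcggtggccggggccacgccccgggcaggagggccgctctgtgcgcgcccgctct
GATAD2A: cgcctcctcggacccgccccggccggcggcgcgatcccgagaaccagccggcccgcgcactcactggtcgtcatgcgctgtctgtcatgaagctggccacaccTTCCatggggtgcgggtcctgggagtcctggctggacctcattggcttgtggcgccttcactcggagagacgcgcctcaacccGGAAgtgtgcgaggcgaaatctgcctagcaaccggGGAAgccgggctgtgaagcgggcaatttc
GATAD2B: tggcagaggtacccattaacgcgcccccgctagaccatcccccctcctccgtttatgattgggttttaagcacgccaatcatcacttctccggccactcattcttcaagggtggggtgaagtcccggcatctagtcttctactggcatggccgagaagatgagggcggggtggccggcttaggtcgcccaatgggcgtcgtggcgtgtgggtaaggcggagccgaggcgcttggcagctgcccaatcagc

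GGAA or TTCC occurred 1 time in the MBD3 window, 2 times in that of MBD2, 3 times in that of GATAD2A and 0 times in that of GATAD2B. The 8-base repeat GGAAGGAA or its reverse complement was in none of these 4 windows. GC content was 74.8% for MBD3 against 66.4% for MBD2, and 67.2% for GATAD2A against 60.8% for GATAD2B. The SMARCA4 window had a GC content of 82.4% and 44 CpG dinucleotides, and the SMARCA2 window 68.8% and 29.

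Of the 41 subunits matched by symbol to a RefSeq promoter, 38 held GGAA on either strand (92.7%). The same held for 92.7% of all 35116 promoters of the same length. ARID2, SMARCC1, SMARCC2, ACTL6A, CBX2 and CBX8 were not matched and are left out here. GGAAGGAA, which contains GGAA, was in 1 of 41, against 3.06% of all. GGGCGG on either strand was in 30 of 41 (73.2%) against 42.6% of all, CCAAT in 20 of 41 (48.8%) against 32.01%, and the palindrome CACGTG in 4 of 41 (9.76%) against 6.34%. Median GC content was 70.8% with 28 CpG dinucleotides in the subunits' windows, against 58.0% and 11 in all promoters. These are matches of letters in a fixed window and do not locate binding.

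The fold changes of the subunits varied with the GC content of their transcripts. Of the 15 subunits with a GC content of 55% or more, 14 had a negative log2 fold change, as did 2981 of all 4033 tested genes in that range. The medians were -0.107 for the subunits and -0.074 for all genes in the range. Of the 15 subunits under 45%, 11 had a positive value, as did 3877 of the 5550 genes in that range. The medians there were 0.016 and 0.037. Across the 46 subunits the correlation of log2 fold change with GC content was -0.74, as a description over genes that share the same 6 libraries. It was -0.76 across the 39 tested companion genes of the same pathways and -0.25 over the 14359 tested genes with a known GC content. The median SE was 0.0390 for the subunits, 0.0413 for the companions and 0.0636 over all tested genes. The sizes of these correlations are therefore not directly comparable. Among the subunits the relation appeared in knockout replicates 1 and 2, where the correlation was -0.70 and -0.71. It was near 0 in replicate 3, at 0.039.

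**Figure D3:**
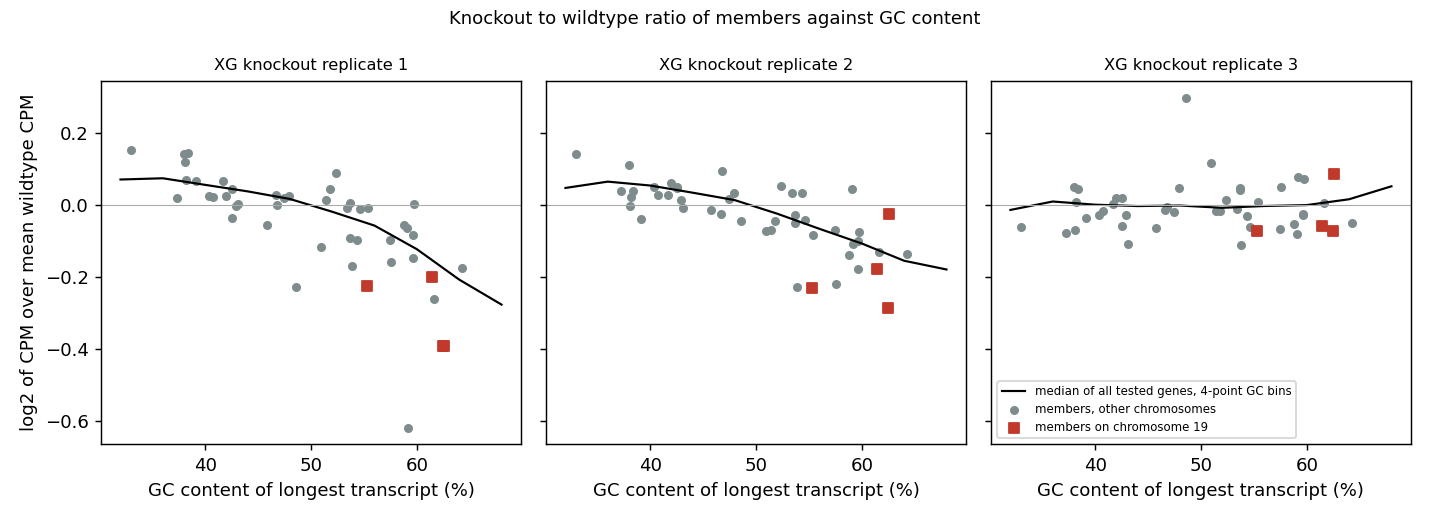
Log2 ratio of CPM to the mean wildtype CPM for each tested subunit against the GC content of its longest transcript, one panel per knockout replicate; squares are the 4 subunits on chromosome 19 and the line is the median of all tested genes in bins of GC. In replicates 1 and 2 the subunits fall with the line above a GC content of about 55%, and in replicate 3 both lie near 0.

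After a lowess correction for GC content in each library, MBD3 and GATAD2A were still lower, with log2 fold changes of -0.15 and -0.14 (edgeR adjusted p = 0.00674 and 0.00183). SMARCA4, with a GC content of 61.4%, was then at -0.055 (edgeR adjusted p = 0.214). The corrected test called 2 subunits, where 2.35% of all genes passed. SMARCB1 moved from -0.071 to 0.0036 and ARID1A from -0.077 to -0.020, and neither passed before or after.

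Chromosome 19 as a whole had ratios below wildtype in the same libraries. Its 981 tested genes had median log2 ratios to wildtype of -0.14 in knockout replicate 1, -0.12 in replicate 2 and -0.020 in replicate 3. The test called 37 of the 981 lower (3.77%), against 0.707% of the 13444 genes on other chromosomes. For its 636 genes with a GC content of 55% or more the median log2 fold change was -0.116, and for the 3397 such genes on other chromosomes it was -0.066. The fourth subunit of the chromosome, DPF1 of canonical BAF, had 5.54, 6.26 and 6.54 CPM in wildtype and 4.66, 6.01 and 6.49 CPM in the knockout, and did not pass (log2 fold change -0.080, edgeR adjusted p = 0.794). Among the 42 tested subunits on other chromosomes 0 passed in edgeR, DESeq2 or limma voom, with 8 at an unadjusted p under 0.05 in edgeR. Of all 13444 tested genes on other chromosomes, 156 passed in edgeR and 2098 had an unadjusted p under 0.05. What part GC content and chromosome each had in the 3 calls was not tested beyond the correction above.

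Most genes near the 3 subunits also had negative fold changes, as did 736 of the 981 tested genes of chromosome 19 and 7084 of all 14425. Within 1 Mb of MBD3, 54 of 67 tested genes had a negative log2 fold change, the median was -0.122, and 6 genes were more negative than MBD3. Around GATAD2A it was 30 of 38 genes, with a median of -0.117 and 12 genes more negative. Around SMARCA4 it was 42 of 55 genes, with a median of -0.085 and 11 more negative. Of these neighbours the ribosomal protein gene RPS15 near MBD3 (log2 fold change -0.21), DNMT1, the maintenance DNA methyltransferase (-0.14), and QTRT1 (-0.28) near SMARCA4, and TMEM161A (-0.23) and NR2C2AP (-0.24) near GATAD2A fell. The values of the 3 subunits were thus inside the range of their neighbours. For MBD3 this rests on the 6 more negative genes, which had only 0.714 to 2.69 CPM in wildtype. Their SEs were 0.173 to 0.334, and none of the 6 passed.

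**Figure D4:**
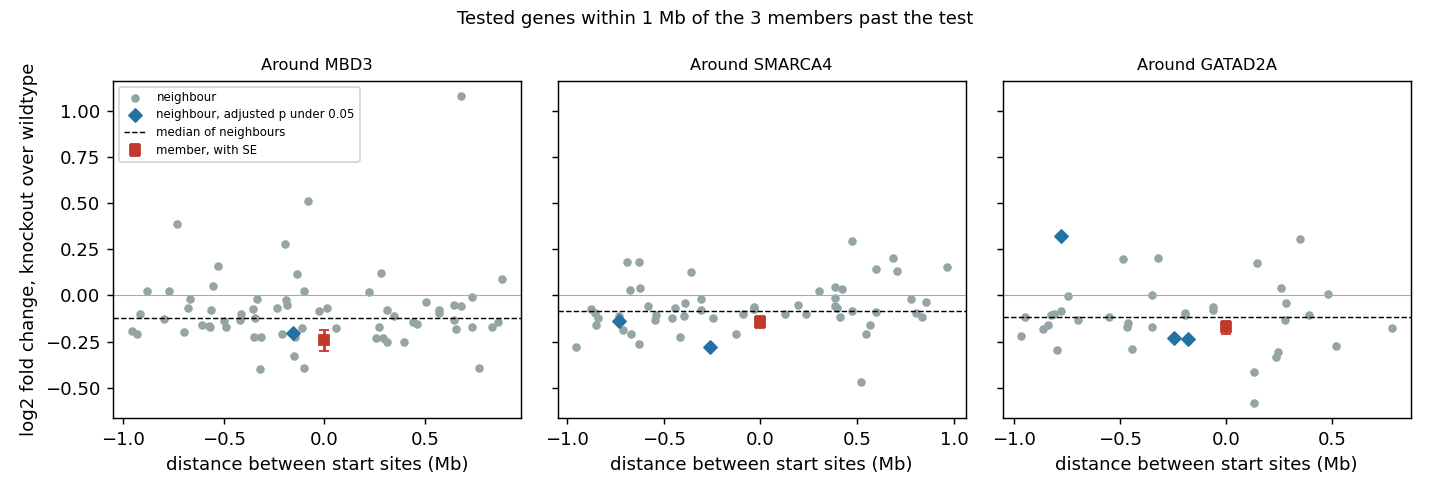
Log2 fold change of every tested gene within 1 Mb of MBD3, SMARCA4 and GATAD2A against the distance between start sites in megabases; the square with its SE is the subunit, diamonds are neighbours past the test and the dashed line is the neighbours' median. The medians of -0.122, -0.085 and -0.117 lie below 0. Each subunit lies below its neighbours' median, but the subunits were picked for being called lower and the neighbours were not.

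Levels of different genes were compared as CPM per kilobase of annotated exon. SMARCC1, a scaffold of the BAF core, was the highest on this scale, with 89.4 ± 1.02 CPM per kilobase in wildtype (SD, n = 3). It was followed by RBBP4 (58.8), the deacetylase HDAC1 (57.3) and the NuRD scaffold MTA2 (57.1). Per kilobase of the longest coding transcript the order changed: HDAC1 (107) was level with SMARCC1 (107), followed by RBBP7 (83.9), MTA2 (79.6), SMARCA4 (75.8), ACTL6A (70.8) and RBBP4 (70.1). Per kilobase of exon CBX7 (0.215) and DPF3 (0.526) were low, as was SMARCE1 (0.252), whose level is understated by the counting. ACTL6B, the neuronal actin-like subunit of BAF, had 0 counts in 5 libraries and 1 in knockout replicate 3, and a count of 0 allows up to 0.0948 to 0.133 CPM at these depths. Its paralog ACTL6A, of proliferating cells, had 137, 133 and 135 CPM in wildtype and 139, 139 and 129 CPM in the knockout.

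**Figure D5:**
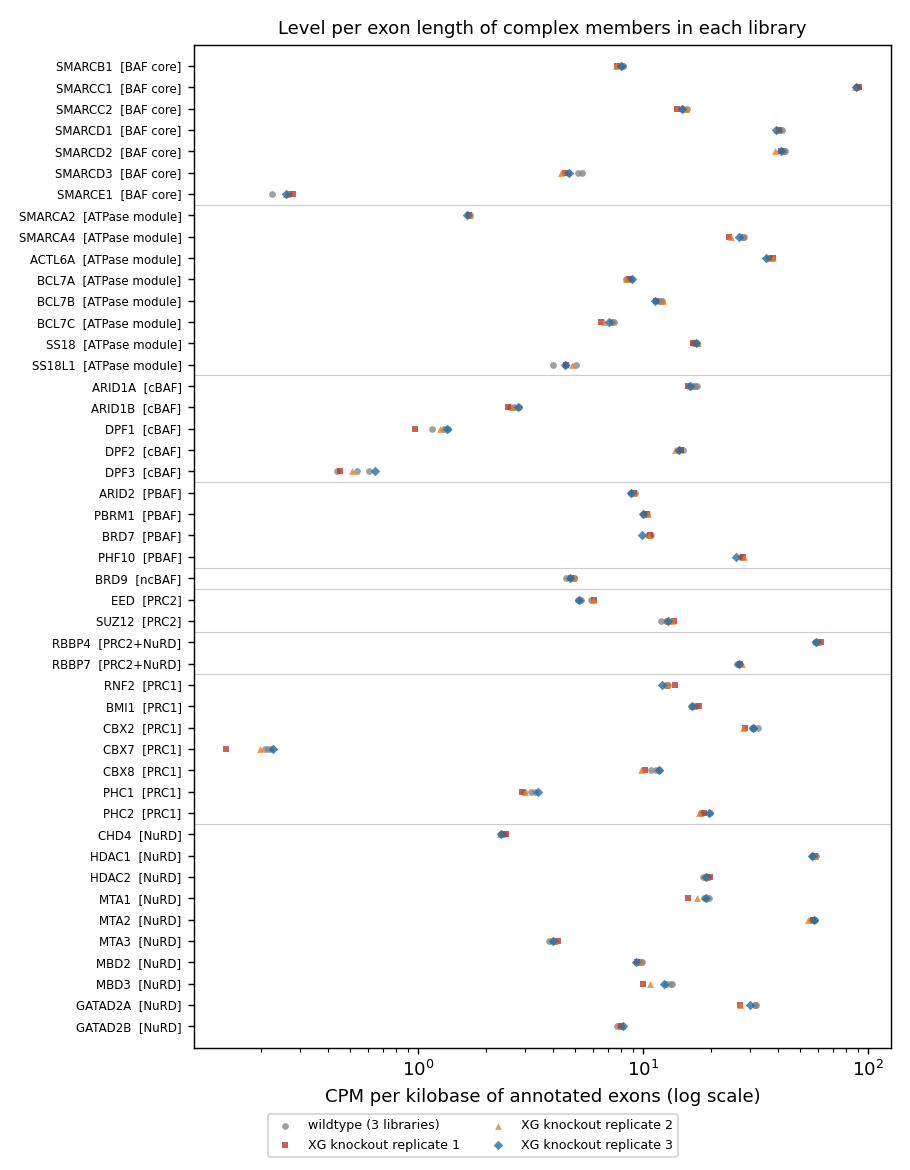
CPM per kilobase of annotated exon on a log axis for each tested subunit, one point per library (circles, wildtype; squares, triangles and diamonds, knockout replicates 1, 2 and 3). SMARCC1 is drawn highest at 89.4 in wildtype and CBX7 lowest at 0.215, on this measure of length, and for most subunits the 6 libraries lie almost on one another.

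Some of these levels are understated by the counting. Exons shared with another gene on the same strand gave no counts, because fragments in them were left unassigned. This applies to 5964 of 12713 exon bases of CHD4, the NuRD remodeller (46.9%, shared with AC006064.6), to 22.8% of BMI1 (shared with COMMD3-BMI1), to 18.9% of SMARCE1 (3487 of 18470 bases, shared with AC073508.2) and to 9.70% of MBD3 (shared with AC005943.1). All these partner genes had 0 counts. CHD4, at 30.2, 29.8 and 30.7 CPM in wildtype and 31.2, 29.3 and 29.9 CPM in the knockout, and SMARCE1 therefore cannot be ranked against other subunits. The differences between groups were taken within a gene, over the same exons in every library.

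Among the BAF subunits grouped here as the core, 0 of 7 passed edgeR's test, against 1.36% of all genes. At an unadjusted p under 0.05 there were 3, against 16.8% of all genes. SMARCB1, the core subunit lost in rhabdoid tumours, had 135, 134 and 135 CPM in wildtype and 127, 125 and 132 CPM in the knockout (log2 fold change -0.071, SE 0.0320, edgeR adjusted p = 0.274). SMARCD2 had 156 CPM in each wildtype library and 150, 142 and 150 CPM in the knockout (-0.082, edgeR adjusted p = 0.200). For both, the knockout libraries lay below all wildtype libraries, by a small margin.

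SMARCD3, a paralog of SMARCD2 that is best known from heart and muscle development, had 26.7, 24.2 and 27.9 CPM in wildtype and 23.3, 22.4 and 24.3 CPM in the knockout (-0.17, SE 0.0620, edgeR adjusted p = 0.177). SMARCC1 had 679, 690 and 675 CPM in wildtype and 695, 669 and 674 CPM in the knockout. SMARCE1 had 4.92, 4.15 and 4.89 CPM in wildtype and 5.14, 4.78 and 4.80 CPM in the knockout (0.074, edgeR adjusted p = 0.800). The groups overlapped for all 3 of these genes. SMARCC2 and SMARCD1 had log2 fold changes of -0.029 and -0.038, with overlapping libraries.

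The ATPase module held SMARCA4 and 7 other tested genes, of which 0 passed edgeR's test, against 1.36% of all genes. Of these 7, BCL7C alone had an unadjusted p under 0.05, against 16.8% of all genes. BCL7C had 31.95, 32.7 and 32.1 CPM in wildtype and 28.6, 29.4 and 31.2 CPM in the knockout, with no overlap (-0.12, edgeR adjusted p = 0.258). BCL7B, its most abundant paralog per length, had 38.1, 38.6 and 39.2 CPM in wildtype and 37.0, 39.8 and 36.6 CPM in the knockout. SS18, the subunit fused to SSX genes in synovial sarcoma, had 103, 107 and 105 CPM in wildtype and 102, 108 and 106 CPM in the knockout. For BCL7B and SS18 the groups overlapped. BCL7A and SS18L1 had log2 fold changes of -0.0020 and 0.036.

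Of the subunits that define the forms of BAF, 0 of 10 passed edgeR's test, against 1.36% of all genes. At an unadjusted p under 0.05 there was 1, ARID1A, against 16.8% of all genes. ARID1A, the DNA-binding subunit of canonical BAF, had 265, 270 and 277 CPM in wildtype and 254, 258 and 259 CPM in the knockout (-0.077, SE 0.0281, edgeR adjusted p = 0.171). All its knockout libraries were below all its wildtype libraries. Its paralogs ARID1B, of canonical BAF, and ARID2, of PBAF, had log2 fold changes of -0.022 and 0.011. DPF3, a histone-reading subunit of canonical BAF, had 3.003, 3.68 and 4.18 CPM in wildtype and 3.09, 3.51 and 4.45 CPM in the knockout (0.042, edgeR adjusted p = 0.921). In this low gene the 3 wildtype libraries spanned more than the difference between the group means.

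PHF10, the PBAF paralog of the DPF proteins, had 165, 163 and 164 CPM in wildtype and 166, 168 and 155 CPM in the knockout. BRD7, a bromodomain subunit of PBAF, had 91.4, 89.1 and 92.1 CPM in wildtype and 91.0, 90.3 and 84.2 CPM in the knockout. In both, knockout replicate 3 was the lowest of the 6 libraries and the groups overlapped. DPF2, PBRM1, which gives PBAF its name, and BRD9, the bromodomain subunit of non-canonical BAF, had log2 fold changes of -0.025, 0.016 and 0.0059.

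In PRC2, SUZ12, the scaffold of the complex, was the subunit with the largest positive fold change. It had 82.8, 79.0 and 83.4 CPM in wildtype and 90.1, 88.2 and 84.7 CPM in the knockout, with no overlap (0.10, SE 0.0380, edgeR adjusted p = 0.185). Replicate 3 was the knockout library nearest to wildtype here as well, and without it SUZ12 passed. EED, which binds trimethylated lysine 27, had 39.9, 35.1 and 36.1 CPM in wildtype and 41.2, 40.9 and 35.5 CPM in the knockout (0.079, edgeR adjusted p = 0.566). Of the companion genes, the catalytic subunit EZH2 had 107 ± 4.61 CPM in wildtype and 107 ± 3.38 CPM in the knockout.

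RBBP7 had 197, 194 and 196 CPM in wildtype and 199, 204 and 198 CPM in the knockout (0.035, edgeR adjusted p = 0.586). RBBP4 had 565, 554 and 552 CPM in wildtype and 583, 567 and 558 CPM in the knockout (0.032). The libraries of RBBP7 did not overlap but were close, and those of RBBP4 overlapped.

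In PRC1, 0 of 7 subunits passed edgeR's test, against 1.36% of all genes. At an unadjusted p under 0.05 there was 1, CBX2, against 16.8% of all genes. CBX2, a chromodomain subunit that reads methylated lysine 27, had 173, 183 and 177 CPM in wildtype and 161, 157 and 175 CPM in the knockout (-0.12, SE 0.0379, edgeR adjusted p = 0.131). Its paralog CBX7, which is at a low level in this line, had 1.56, 1.65 and 1.602 CPM in wildtype and 1.04, 1.49 and 1.69 CPM in the knockout (-0.17, SE 0.208, edgeR adjusted p = 0.737). Replicate 3 overlapped the wildtype libraries in CBX2 and was the highest of all 6 in CBX7.

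PHC2, a polyhomeotic subunit that can polymerise PRC1, had 90.7, 98.3 and 90.0 CPM in wildtype and 93.2, 88.4 and 97.8 CPM in the knockout. The groups overlapped almost fully. The E3 ligase RNF2 and its partner BMI1 had log2 fold changes of 0.016 and -0.0046, CBX8 had -0.11 (edgeR adjusted p = 0.392) and PHC1 had -0.022.

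In NuRD, the 2 subunits that fell, MBD3 and GATAD2A, stood beside 8 others that did not pass. HDAC1, 1 of its deacetylases, had 233, 223 and 226 CPM in wildtype and 230, 230 and 224 CPM in the knockout. MTA2 had 238, 248 and 245 CPM in wildtype and 242, 230 and 245 CPM in the knockout. MTA1 had 137, 130 and 131 CPM in wildtype and 111, 121 and 133 CPM in the knockout (-0.12, edgeR adjusted p = 0.201). For MTA1 knockout replicates 1 and 2 were below wildtype and replicate 3 was inside it, while HDAC1 and MTA2 overlapped.

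MTA3 had 42.8, 40.5 and 41.6 CPM in wildtype and 44.3, 43.2 and 42.0 CPM in the knockout (0.051, edgeR adjusted p = 0.630). HDAC2 and CHD4 had log2 fold changes of 0.033 and -0.0066. By complex, the median log2 fold change was -0.022 over 25 tested BAF subunits, 0.00045 over 11 Polycomb subunits and -0.00074 over 12 NuRD subunits, the last 2 sets both including RBBP4 and RBBP7.

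Paralog shares, computed from CPM per kilobase of exon within a family, describe which gene supplied most of the RNA. SMARCA4 made up 94.3 ± 0.111% of the ATPase pair in wildtype and 93.7 ± 0.371% in the knockout. GATAD2A made up 80.5%, 79.9% and 79.8% of its pair in wildtype and 77.2%, 77.0% and 78.7% in the knockout, with no overlap between groups. MBD3 made up 57.3 ± 1.08% of its pair in wildtype and 53.8 ± 2.97% in the knockout, or 63.7% and 60.3% by length of the longest coding transcript. The MBD3 share overlapped between groups, at 57.1% in knockout replicate 3 against 56.2% in wildtype replicate 3. The SMARCA4 share overlapped too, narrowly and also through knockout replicate 3. These shares were not tested, and in the knockout each of the 3 genes was still the larger of its pair.

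In other families the wildtype and knockout shares were within 1.5 percentage points of each other. In wildtype SMARCC1 supplied 85.5% of the SMARCC pair, PHC2 85.6% of the PHC pair and SS18 79.0% of its pair. HDAC1 supplied 75.2% of the deacetylase pair, CBX2 73.0% of the CBX set and MTA2 71.3% of the MTA set. By length of the longest coding transcript these shares were 76.6%, 86.2%, 85.5%, 78.4%, 75.0% and 60.0%, in the same order. SMARCD2 and SMARCD1 were close, at 48.2% and 46.1%. In 4 families the order differed between the length of annotated exons and that of the longest coding transcript. By exon length RBBP4 (69.0%), PHF10 (62.5%) and BRD7 (69.0%) led their families, whereas by transcript length RBBP4 had 45.5%, PHF10 43.5% and BRD7 44.3%. In the BCL7 family BCL7A was above BCL7C by exon length (31.0% and 26.2%) and below it by transcript length (21.6% and 31.8%).

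The companion list holds 41 other genes of these pathways, including the PR-DUB deubiquitinase, and 39 were tested. By edgeR 0 passed, against 1.36% of all genes. An unadjusted p under 0.05 was found for 8, 2 higher and 6 lower, against 16.8% of all genes (1007 higher and 1415 lower of 14425). DESeq2 and limma voom each called 1, CHD3, where DESeq2 called 203 of 9288 genes in all and limma voom 217 of 14425. The median log2 fold change of the companions was -0.0060. BCL11A and ASXL3 had 0 counts in every library.

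CHD3, the paralog of CHD4 in NuRD, had 280, 280 and 283 CPM in wildtype and 248, 262 and 265 CPM in the knockout (-0.12, SE 0.0297, edgeR adjusted p = 0.0505). BCOR, a scaffold of a variant PRC1, had 104, 109 and 105 CPM in wildtype and 94.97, 97.5 and 97.4 CPM in the knockout (-0.13, edgeR adjusted p = 0.0645), and it passed after GC correction (edgeR adjusted p = 0.0258). In both genes the groups did not overlap. For BCOR the 3 knockout libraries, replicate 3 included, lay close together.

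The other companions with the smallest p in each complex did not pass. In PRC1, RYBP had a log2 fold change of 0.13 and L3MBTL2 of -0.087 (edgeR adjusted p = 0.151 and 0.248). In PR-DUB, FOXK2 had -0.092, ASXL2 0.078 and FOXK1 -0.056 (edgeR adjusted p = 0.141, 0.279 and 0.404). In NuRD, the demethylase KDM1A had 0.055 and ZNF512B -0.080 (edgeR adjusted p = 0.308 and 0.355). In PRC2, PHF19 had -0.075, MTF2 0.080 and EPOP -0.11 (edgeR adjusted p = 0.301, 0.340 and 0.391). In BAF, ACTB had -0.076, BICRA -0.21 and BICRAL 0.034 (edgeR adjusted p = 0.175, 0.402 and 0.836), and BICRA is the companion on chromosome 19.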

How the data were processed

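The 6 libraries were grouped and numbered by their titles, and the 6 count columns were matched to them by name. The deposited counts are whole fragments per gene. The authors counted them with featureCounts 2.0.1 on GENCODE 33 exons with paired-end, reverse-strand settings, per the file headers. With those settings, fragments that overlap several genes or map to several places were not assigned. The submitters' processing notes also name STAR 2.7.6a, Subread 2.0.1, GRCh38, R 4.2.2 and DESeq2 1.38.3. Log2 fold changes and p-values of the authors' own comparison were also deposited, whose direction is not stated; 99.2% of tested genes had the sign obtained from the counts.

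Genes were kept by filterByExpr (minimum count 10, minimum total 15), scaled by trimmed mean of M values and tested with edgeR 4.0.16 in R 4.3.3 (glmQLFit and glmQLFTest, two-sided, no covariates), with Benjamini-Hochberg adjustment over all 14425 tested genes and a threshold of 0.05. The SE was the fold change divided by the square root of F. The common biological coefficient of variation was 3.28%. CPM use TMM-scaled library sizes, and the ± values are SDs of 3 libraries. The limit for a count of 0 is 3 counts and covers counting error only. GC content is that of the longest transcript in GENCODE 29, matched by gene identifier, and the correction removed a lowess trend (span 0.5) from each library. The fit was tested on simulated data.

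The subunits and the lists were chosen with earlier results of these data known. Values in every library are given for subunits past the threshold, those whose groups do not overlap, the 5 largest fold changes in each direction, and the highest per length in each paralog family; of the companions, those past the threshold and the 3 with the smallest p in each complex are named. Neighbours and the genes of 1 chromosome were singled out after their values were seen. The result of 1 neighbour is not reported here. Alternatives were scaling by upper quartile or by relative log expression, limma 3.58.1 voom, DESeq2 1.42.0, no filter, a minimum of 100 counts in 3 libraries, a block for the replicate number, GC correction with and without that block, leaving out each library, and an adjusted p of 0.01. Knockout replicate 3 as the 1 knockout library, and lengths of the longest coding transcript, were added after seeing the data.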

Additional observations from a re-analysis of the deposited data

How the results depend on the processing

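Genes called over all tested genes numbered 196, and 647 with no filter on low counts, 37 with the replicate block, 339 after GC correction (157 higher and 182 lower), 125 with knockout replicate 3 as the 1 knockout library, 33 at an adjusted p of 0.01, and 18 to 1851 when 1 library was left out, the highest without knockout replicate 3. Subunits called numbered 3 by both other scalings, DESeq2 and limma voom. They numbered 5 with no filter (MTA1 and CBX2 added), 1 with at least 100 counts in 3 libraries (GATAD2A), 2 after GC correction and 2 with it and the replicate block (MBD3 and GATAD2A), 0 with knockout replicate 3 alone, 0 at an adjusted p of 0.01, and 0 to 11 when 1 library was left out. With the replicate block 0 were called (edgeR adjusted p = 0.0826 for SMARCA4, 0.0893 for MBD3 and 0.0661 for GATAD2A). The labels do not say whether same-numbered libraries were paired. Deviations of same-numbered libraries had correlations of -0.046, -0.024 and -0.051 over 14425 genes. Counting noise in low genes enters these values, so they cannot exclude a pairing. Companions called numbered 1 by relative log expression scaling, 1 by DESeq2, 1 by limma voom, 3 with no filter, 1 after GC correction, and 0 to 11 when 1 library was left out.

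Of 43 uncalled subunits, 30 changed sign under at least 1 alternative and 13 did not. Among the 15 subunits that passed, had groups without overlap or had the 5 largest fold changes in either direction, signs reversed in 5, none of them called: SMARCB1 after GC correction (0.0036) and with the block added (0.0047), SMARCE1 without wildtype replicate 2 (-0.0040, with 0.12 the highest value when 1 library was left out), DPF3 without wildtype replicate 1 (-0.083) and without knockout replicate 3 (-0.11, with 0.15 the highest when 1 library was left out), EED with knockout replicate 3 alone (-0.063) and CBX7 likewise (0.079). The causes were not tested. Of the uncalled subunits, 8 passed without knockout replicate 3 and 2 under any other alternative. Depth limits the lowest subunits most: the SE of a log2 fold change was 0.208 for CBX7 and 0.0254 for SMARCC1.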
